A study of Homo sapiens with 6 samples.

Results

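The transcripts described here are RefSeq noncoding RNAs, that is, transcripts whose accession starts with NR_. They include long noncoding RNAs, host transcripts of small RNAs, transcribed pseudogenes, and small or ribosomal RNAs. Of the 34127 non-control probes on the array, 2136 carried such an accession, and 1487 of these met the rule, namely more than 50% of the spots of the probe flagged as well above background by the scanner software on every array of shCtrl, of shXBP-1s or of both. A value on every array was available for 1485, which are the noncoding probes tested among 27624 tested probes in all, and the other 649 noncoding probes were below the rule. Of the tested noncoding probes, 1315 matched a gene symbol through their accession and belonged to 1118 genes, and 170 are known here by accession only.

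CAL-27 is an established line of human tongue squamous carcinoma cells. Total RNA was measured from CAL-27 cells transfected with shXBP-1s, an shRNA against the spliced form of XBP-1 (n = 3), and from CAL-27 cells transfected with the negative control shCtrl (n = 3). Each sample had 1 one-colour array. The question was which noncoding transcripts differed in level between cells with and without the knockdown. The labels give the samples as separate but do not say whether they came from separate cultures, so the p-values measure only the spread between these samples, which may be technical.

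XBP-1s is the transcription factor made when the endoplasmic reticulum stress sensor IRE1 splices XBP1 mRNA, and it switches on genes for protein folding, secretion and degradation. Many long noncoding RNAs are spliced and polyadenylated like mRNAs but have no long open reading frame, and they act in the nucleus on chromatin and splicing or in the cytoplasm on RNA stability and translation. Host transcripts carry small nucleolar RNAs (snoRNAs) or microRNAs (miRNAs) in their introns or exons, and the spliced RNA of many snoRNA hosts is degraded by nonsense-mediated decay. Antisense and divergent transcripts lie on the opposite strand of a coding gene or start from its promoter, and transcribed pseudogenes are copies of coding genes, some of them close enough in sequence to share probe binding with the parent.

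Some regulatory sequences at these loci are shown before the values. The promoters come from RefSeq (GRCh38.p14) and run from 250 bases before to 50 bases after the start of the transcript, in lower case. Capitals mark GACGTG, or its reverse complement CACGTC, the core of a DNA element bound by XBP-1s. Both strands were searched, and the core also lies inside the longer element TGACGTGG, which was searched as well. CASC2 and LINC00895 are shown as called genes whose promoter held the core, and MANCR and HCG26 as called genes whose promoter did not. LINC00895 was chosen after its values and its match were seen, and its call (1.15, adjusted p = 0.0265) was lost in the deposited values (0.96), with the slide as a block (0.55), without shCtrl replicate 2 (0.77) and without any 1 of the shXBP-1s arrays (adjusted p between 0.0590 and 0.0814 by limma).
CASC2 promoter, chr10:118046571-118046870, plus strand: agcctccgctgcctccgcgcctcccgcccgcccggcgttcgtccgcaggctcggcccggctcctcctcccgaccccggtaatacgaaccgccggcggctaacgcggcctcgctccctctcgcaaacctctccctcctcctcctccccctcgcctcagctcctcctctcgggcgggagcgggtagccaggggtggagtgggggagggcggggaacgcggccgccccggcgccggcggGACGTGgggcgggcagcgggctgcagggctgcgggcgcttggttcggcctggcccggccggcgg
LINC00895 promoter, chr22:19566790-19567089, minus strand: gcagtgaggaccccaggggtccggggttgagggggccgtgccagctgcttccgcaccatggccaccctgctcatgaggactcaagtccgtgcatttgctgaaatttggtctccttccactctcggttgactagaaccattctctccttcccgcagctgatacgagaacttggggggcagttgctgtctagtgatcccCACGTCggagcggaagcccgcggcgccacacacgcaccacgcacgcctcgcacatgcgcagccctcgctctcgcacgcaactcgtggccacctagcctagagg
MANCR promoter, chr10:4678021-4678320, minus strand: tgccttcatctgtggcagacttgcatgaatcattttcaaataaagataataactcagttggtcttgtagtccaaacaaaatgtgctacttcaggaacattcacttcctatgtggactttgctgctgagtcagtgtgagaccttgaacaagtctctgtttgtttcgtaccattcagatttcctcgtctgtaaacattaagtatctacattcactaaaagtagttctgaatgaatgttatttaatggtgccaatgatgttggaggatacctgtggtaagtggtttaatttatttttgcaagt
HCG26 promoter, chr6:31470979-31471278, plus strand: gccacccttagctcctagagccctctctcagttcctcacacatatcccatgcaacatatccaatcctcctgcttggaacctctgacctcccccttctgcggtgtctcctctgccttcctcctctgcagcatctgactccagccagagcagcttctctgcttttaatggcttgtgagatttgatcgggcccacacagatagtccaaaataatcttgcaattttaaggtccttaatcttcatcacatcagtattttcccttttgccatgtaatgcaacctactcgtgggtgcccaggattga
The core was present in 7.81% of 35116 promoters in the RefSeq table, in 9.51% of the 589 promoters of tested noncoding genes, and in 4 of 33 promoters (12.1%) of the 26 called noncoding genes that have an entry. These 4 promoters belonged to CASC2, CCDC197, LINC00895 and LOC442497, of which LINC00895 was higher and the other 3 were lower in shXBP-1s. CASC2 and LOC442497 were not well above background on any shXBP-1s array, and their calls were lost in the deposited values. With the lowest signal well above background taken as the shXBP-1s level of each array, their falls were 1.27-fold and 1.45-fold. CCDC197 lost its call without shCtrl replicate 1 (-0.96). The longer element was present in 0.729% of all promoters, in 1.36% of the promoters of tested noncoding genes and in 0 of the 33. A match is a description of these letters only, since binding of XBP-1s was not measured in these samples.

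The shXBP-1s arrays were brighter than the shCtrl arrays before scaling. In shCtrl the 75th percentile of an array's signal ranged from 687.4 to 761.3, in shXBP-1s from 792.0 to 983.4, and between 69.4% and 73.5% of the noncoding spots were well above background on the 6 arrays. No noncoding probe was saturated. The lowest signals well above background were between -7.32 and -7.06 in log2 units relative to the 75th percentile, so probes near that level are limited by background. The XBP1 probe stood at 1.88, 1.85 and 1.87 in shCtrl and at -0.50, -0.54 and -0.52 in shXBP-1s, in log2 units relative to the 75th percentile of the array, the scale of all levels given here. Whether this probe separates spliced from unspliced XBP1 was not tested. All 7 squamous epithelial marker genes (KRT5, KRT14, KRT17, TP63, CDH1, EPCAM and SFN) were well above background on all 6 arrays, and 3 of them were called higher. The summed signal of the 7 probes tested for fibroblast and leukocyte markers was between 1.70 and 1.79 times the 75th percentile in shCtrl and between 1.40 and 1.45 times in shXBP-1s, and that of the 7 squamous probes between 101.5 and 108.0 times in shCtrl and between 133.9 and 158.0 times in shXBP-1s. Of those probes only PDGFRB was called, with a log2 fold change of -1.28, and the part of other cell types in the results was not tested. The arrays had 2 scan times, and arrays of the same scan time are taken here to share a slide. All shXBP-1s samples shared theirs with shCtrl replicate 1, and the other held shCtrl replicates 2 and 3.

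LINC00520 and MANCR, neither well above background in shCtrl, had the largest bounds of a rise among the noncoding probes, TPRXL rose most among those well above background on all 6 arrays, and LY6E-DT, LINC00525 and UCA1 fell most among those with a symbol (LY6E-DT was well above background on 1 of 3 shXBP-1s arrays). With limma, 62 noncoding probes were called (a change of at least 2-fold and an adjusted p, by Benjamini-Hochberg over all tested probes, below 0.05), 36 higher and 26 lower in shXBP-1s. The called share was 4.18%, against 4.9% of all tested probes, of which 2.29% were called higher and 2.61% lower. Without the minimum fold, 231 noncoding probes (15.6%, against 18.4% of all tested probes) were higher and 272 (18.3%, against 23.3%) were lower, while 982 did not pass. The median log2 fold change was -0.03 over the noncoding probes and -0.02 over all tested probes, and the middle of the distribution was narrow, with the 5th and 95th percentiles of the noncoding probes at -0.71 and 0.73. The values of the groups did not overlap for 671 of the 1485 tested noncoding probes and for 61 of the 62 called ones. The share over all tested probes is not given here, so these counts say nothing particular of noncoding probes. Separate groups, as described below, were common among the noncoding probes and add little to a call.

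Of the tested noncoding probes, 106 passed the rule through 1 group only, 39 through shCtrl and 67 through shXBP-1s, and 15 of the 62 calls are among them (5 and 10). Over all tested probes, 1354 were called, 1093 of them well above background on all 6 arrays, and 1318 probes passed through 1 group only. Those probes were selected for a higher level in that group. Where a bound is given below, the adjusted p tests the fitted change, which uses values below background, and not the bound. For a bound, the dim group takes the higher of its value and the array's lowest signal well above background over all probes. ATXN8OS stood at -6.98 in shCtrl replicate 1 and was not well above background, though that lowest signal was -7.14. The bounds are thus estimates and not strict limits. Among the named genes, the bounds of CASC2, LOC442497, KCNJ2-AS1 and ATXN8OS were under the 2-fold limit of a call. Over the 1379 noncoding probes well above background on all 6 arrays, 47 were called (3.41%, against 4.15% of all probes under the same condition), 26 higher and 21 lower. LINC00525, UCA1, KRT42P and KRT16P2 were the 4 probes called under all 19 settings tried, and 30 of the 62 were called under every setting other than the pair with normexp background correction. That pair starts from the median spot signal, models the background and adds an offset of 50, which compresses the differences of dim probes. Normexp alone also moved the median of all tested probes to -0.41, but not every probe alike. UCA1 went from -1.96 to -1.78 and GAS5 from -0.07 to 0.17, while MANCR went from 3.18 to -0.36. The median is therefore no common baseline for single probes. With quantile normalization after normexp it was -0.0006.

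The long intergenic noncoding RNAs, genes named LINC, gave 8 called higher and 4 called lower among 236 tested probes, 5.08% called against 4.9% of all tested probes (median log2 fold change -0.06). LINC00520, an RNA that has been studied in squamous carcinoma, was not well above background on any shCtrl array and was well above it on all 3 shXBP-1s arrays. Its level was -8.66, -7.87 and -8.68 in shCtrl and -3.53, -3.33 and -3.26 in shXBP-1s. The bound of the rise was 14.2-fold, taking as the shCtrl level on each array the higher of the measured value and the lowest signal well above background. The fitted log2 fold change of 5.03 (SE 0.24, adjusted p = 4.13e-06) depends on values below background. It was 0.17 after normexp and 0.94 with quantile normalization added, with no call. Its coding neighbours had smaller changes of the other sign, -0.28 for KTN1 and -0.45 for PELI2.

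LINC00525 was the noncoding probe with the smallest adjusted p. It stood at -1.42, -1.46 and -1.31 in shCtrl and at -3.34, -3.38 and -3.36 in shXBP-1s. The groups were far apart and each was tight, with a log2 fold change of -1.96 (SE 0.06, adjusted p = 1.36e-06). The adjacent coding gene TNS3, for the focal adhesion protein tensin 3, was also called lower, with a log2 fold change of -1.34. LINC01963 fell from -3.40, -3.43 and -3.51 to -4.62, -4.86 and -4.99 (log2 fold change -1.38, SE 0.11, adjusted p = 4.15e-05). LINC02381, which lies next to the HOXC cluster, fell from -1.51, -1.60 and -1.57 to -2.74, -2.68 and -2.91 (log2 fold change -1.22, SE 0.07, adjusted p = 1.00e-05). Both groups were separate for each of these genes, and the neighbour HOXC4 of the homeobox family had a log2 fold change of -0.94 (adjusted p = 9.81e-05).

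LINC00880 rose from -3.96, -4.27 and -4.14 to -2.77, -2.76 and -2.84, a log2 fold change of 1.33 (SE 0.09, adjusted p = 2.11e-05). Its neighbour LEKR1 was called higher as well, at 1.23 (adjusted p = 0.00440). The LEKR1 mean was -7.48 in shCtrl, under the lowest signals well above background, and -6.25 in shXBP-1s. LEKR1 thus passed the filter through shXBP-1s only, and its change uses values below background. LINC00886 on the same stretch was also called higher, at 1.00 (SE 0.09). It was named after its values were seen. LINC00886 was just under the 2-fold limit without shCtrl replicate 1, shXBP-1s replicate 2 or shXBP-1s replicate 3 (0.95 to 0.99). LINC00205 differed between its probes. One stood at -5.21, -5.11 and -5.18 in shCtrl and at -4.09, -3.92 and -3.93 in shXBP-1s (log2 fold change 1.19, SE 0.10, adjusted p = 4.71e-05, but -0.39 after normexp and 0.36 with quantile normalization added), while the other stood at 0.18, 0.11 and 0.07 and at -0.44, -0.53 and -0.52 (-0.62, SE 0.05, adjusted p = 4.84e-05). Thus no single direction can be given for LINC00205. The neighbouring COL18A1, for a basement membrane collagen, was called lower at -1.19.

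Among other long noncoding RNAs, 3 of 183 tested probes were called higher and 5 lower, 4.37% in all against 4.9% of all tested probes (median -0.05). UCA1, first described in urothelial carcinoma, measured 5.59, 5.91 and 5.78 in shCtrl and 3.86, 3.81 and 3.73 in shXBP-1s. The level was thus lower on every shXBP-1s array, 3.89-fold on average (log2 fold change -1.96, SE 0.08, adjusted p = 2.91e-06). The neighbouring olfactory receptor probe OR10H1 had a log2 fold change of -0.07.

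MANCR, described as a mitotically associated long noncoding RNA, was not well above background on any shCtrl array. It stood at -7.20, -7.74 and -8.84 there and at -4.77, -4.79 and -4.67 in shXBP-1s. The bound of the rise was 5.49-fold, and the fitted log2 fold change was 3.18 (adjusted p = 3.13e-04). The measured spread of shCtrl is that of values below background, and the value was -0.36 after normexp and 0.48 with quantile normalization added, with no call. The adjacent coding gene KLF6, for a zinc-finger transcription factor, was called higher with a log2 fold change of 1.53 (adjusted p = 5.99e-06). HAR1B, from the human accelerated region locus, fell from -4.80, -4.50 and -4.81 to -6.00, -5.91 and -6.58 (log2 fold change -1.46, SE 0.20, adjusted p = 7.16e-04).

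CASC2 and LOC442497 were well above background on all shCtrl arrays and not well above it on any shXBP-1s array. CASC2 stood at -6.83, -6.81 and -6.73 in shCtrl and at -8.03, -8.24 and -8.41 in shXBP-1s. The bound of the fall was 1.27-fold, and the fitted log2 fold change was -1.43 (adjusted p = 0.00220). The other CASC2 probes, from another transcript, had log2 fold changes of -0.62 and -0.30, and neither was called. LOC442497 stood at -6.18, -6.86 and -6.75 and at -7.44, -7.38 and -7.99. The bound of the fall was 1.45-fold, and the fitted log2 fold change was -1.01 (adjusted p = 0.0238). The call of LOC442497 was lost without shCtrl replicate 1 (-0.80) and without shXBP-1s replicate 3 (-0.81), and in the deposited values (-0.71). In those values CASC2 was at -0.54 and was not called.

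Among 9 tested genes of the list of nuclear and chromatin-associated long noncoding RNAs (10 probes), 1 probe was called higher and 0 lower, and 2 were higher and 4 lower without the minimum fold. The median log2 fold change was -0.09. Of all tested probes 4.9% were called, and without the minimum fold 18.4% were higher and 23.3% lower. FIRRE, a nuclear RNA that contacts several chromosomes, stood at -6.07, -5.57 and -5.44 in shCtrl and at -4.66, -4.67 and -4.73 in shXBP-1s (log2 fold change 1.01, SE 0.17, adjusted p = 0.00227). The value lay at the 2-fold limit and was below it without shCtrl replicate 1 (0.82), without shXBP-1s replicate 1 (0.99) and, narrowly, without shXBP-1s replicate 2. It was -0.53 after normexp and 0.25 with quantile normalization added.

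KCNQ1OT1, the antisense RNA of the imprinted KCNQ1 domain, fell by less than 2-fold. It went from -1.71, -1.57 and -1.72 to -2.37, -2.50 and -2.63, a log2 fold change of -0.83 (SE 0.08, adjusted p = 1.10e-04). LINC-PINT, a p53-responsive RNA linked to Polycomb, fell from -0.88, -0.82 and -0.87 to -1.56, -1.43 and -1.42 (-0.61, SE 0.06, adjusted p = 9.17e-05). In both genes all shXBP-1s arrays lay under all shCtrl arrays. MALAT1, the abundant nuclear speckle RNA, stood at 3.44, 3.48 and 3.41 in shCtrl and at 3.45, 3.43 and 3.50 in shXBP-1s. The groups overlapped, and the 95% interval of its log2 difference from limma was -0.09 to 0.12. For HOTAIR, a HOXC antisense RNA, the difference was -0.19 (SE 0.13, interval -0.48 to 0.10). The cytoplasmic PUMILIO-binding RNA NORAD, chosen after its values were seen, had probes of opposite sign at -0.22 (adjusted p = 0.0140) and 0.50 (adjusted p = 7.59e-04).

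NEAT1, TUG1, TINCR and MIR205HG matched no probe by accession and were not analysed here. The mRNAs for proteins of the paraspeckle, the nuclear body built on NEAT1, were measured. Of 21 probes of 13 genes, 1 was called lower, a probe of the cleavage factor NUDT21 at -1.998 (4.9% of all tested probes were called). Without the minimum fold 2 were higher and 9 were lower, against 18.4% and 23.3% of all tested probes. The median of the list was -0.20. The other NUDT21 probe fell by 0.80 on the log2 scale.

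In the list of long noncoding RNAs studied in squamous carcinoma, 20 genes (24 probes) were tested, of which 1 probe was called higher (LINC00520) and 2 lower (UCA1 and CASC2). Without the minimum fold the counts were 4 higher and 7 lower, with a median of -0.17. Over all tested probes 4.9% were called, and 18.4% were higher and 23.3% lower without the minimum fold. H19, the imprinted RNA of the IGF2 domain, stood at -5.45, -5.36 and -6.14 in shCtrl and at -6.58, -5.99 and -7.11 in shXBP-1s. These groups overlapped, with a difference of -0.91 (SE 0.33, adjusted p = 0.0557), which passed without shCtrl replicate 3 (-1.16, adjusted p = 0.0311) and without shXBP-1s replicate 2 (-1.20, adjusted p = 0.0231). PVT1, next to MYC, had probes of opposite sign, 1 with a log2 fold change of -0.31 (adjusted p = 0.0461) and 1 with 0.34 (adjusted p = 0.0183). The remaining genes of the list lay between -0.35 (DLEU1) and 0.32 (ZEB1-AS1).

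The noncoding genes of the major histocompatibility complex (MHC) region and of interferon-linked loci gave 1 call among 18 probes of 17 genes. This was HCG26, which lies between the stress-ligand genes MICA and MICB. It stood at -1.59, -1.74 and -1.50 in shCtrl and at -3.24, -3.25 and -3.18 in shXBP-1s. The fall was 3.06-fold with separate groups (log2 fold change -1.61, SE 0.08, adjusted p = 3.90e-06). The MICA probes differed by -0.10 each, and those of MICB by -0.39 and 0.13. HCP5, another transcript of the MHC class I region, fell from -0.77, -0.99 and -0.86 to -1.25, -1.38 and -1.51 (-0.50, SE 0.08, adjusted p = 0.00186). Without the minimum fold 4 probes of the list were higher and 4 were lower, with a median of 0.00. Over all tested probes these shares were 18.4% and 23.3%, and 4.9% were called. The largest positive value of the list was that of HCG22, named after its values were seen, at 0.99 (SE 0.22, adjusted p = 0.00742).

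The host genes of small RNAs gave 0 calls among 40 tested probes, where 4.9% of all tested probes were called. Without the minimum fold 11 were higher and 5 were lower (27.5% and 12.5%, against 18.4% and 23.3% of all tested probes). For the snoRNA and scaRNA hosts, 19 of 33 listed genes were tested with 20 probes. Of these, 8 were higher and 0 were lower without the minimum fold, with a median log2 fold change of 0.10. The changes were small. SNHG8 went from 2.80, 2.87 and 2.87 to 3.24, 3.28 and 3.33 (0.44, SE 0.05, adjusted p = 1.73e-04), and SNHG17 from 1.12, 1.02 and 1.09 to 1.55, 1.59 and 1.64 (0.52, SE 0.05, adjusted p = 8.77e-05). DANCR, which hosts a snoRNA and is also studied as a differentiation antagonist, went from -0.31, -0.38 and -0.36 to 0.15, 0.15 and 0.04 (0.46, SE 0.05, adjusted p = 2.24e-04). For all 3 genes the groups were separate.

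The other higher hosts were SNHG15 at 0.58, 1 of the SNHG7 probes at 0.50 (the other was at -0.21), EPB41L4A-AS1 at 0.35, SNHG29 at 0.23 and SNHG12 at 0.12. For SNHG15, shCtrl replicate 1 stood at 0.67 against 1.22 and 1.35 in the other shCtrl arrays. Apart from DANCR and SNHG12, these hosts were chosen after their values were seen. The hosts GAS5, ZFAS1 and SNHG1 did not pass. GAS5 stood between 4.11 and 4.20 in shCtrl and between 4.04 and 4.13 in shXBP-1s (-0.07, interval -0.18 to 0.05), ZFAS1 differed by 0.08 (interval -0.05 to 0.22) and SNHG1 by -0.15 (interval -0.29 to -0.02, adjusted p = 0.0691). The count of higher hosts lay between 5 and 10 over the settings tried, and that of lower hosts was 0 apart from 1 without shXBP-1s replicate 1. Of 30 probes of 17 nonsense-mediated decay factors, 0 were called (4.9% of all tested probes were). Without the minimum fold 2 were higher and 5 were lower, against 18.4% and 23.3% of all tested probes. The lowest was a probe of the exon junction protein RBM8A at -0.97, whose other probe was at 0.07 (adjusted p = 0.254).

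For the miRNA hosts, 15 of 44 listed genes were tested with 17 probes, of which 0 were called, 4 were higher and 3 were lower without the minimum fold. The shares over all tested probes were 4.9% called, and 18.4% higher and 23.3% lower without the minimum fold. The mature miRNAs are not measured by these probes. MIR23AHG, MIR17HG and MIR100HG, chosen after their values were seen, had the largest passing differences of the list, and some of the miRNAs they carry are given from RefSeq (GRCh38.p14). Capitals mark the seed, bases 2 to 8.
hsa-miR-23a-3p, chr19:13836595-13836615, minus strand: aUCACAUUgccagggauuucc
hsa-miR-27a-3p, chr19:13836447-13836467, minus strand: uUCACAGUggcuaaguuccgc
hsa-miR-24-3p, chr19:13836289-13836310, minus strand: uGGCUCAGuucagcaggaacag
hsa-miR-17-5p, chr13:91350618-91350640, plus strand: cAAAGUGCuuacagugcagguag
hsa-miR-20a-5p, chr13:91351072-91351094, plus strand: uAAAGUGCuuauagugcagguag
hsa-miR-19a-3p, chr13:91350939-91350961, plus strand: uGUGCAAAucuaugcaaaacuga
hsa-miR-19b-3p, chr13:91351245-91351267, plus strand: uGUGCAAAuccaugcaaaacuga
hsa-miR-100-5p, chr11:122152275-122152296, minus strand: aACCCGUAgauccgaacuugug
hsa-let-7a-5p, chr11:122146568-122146589, minus strand: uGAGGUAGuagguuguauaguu
hsa-miR-125b-5p, chr11:122099809-122099830, minus strand: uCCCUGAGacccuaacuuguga
The miRNAs miR-17-5p and miR-20a-5p share the seed AAAGUGC, and miR-19a-3p and miR-19b-3p share GUGCAAA. MIR23AHG, the host of miR-23a, miR-27a and miR-24, fell from -2.25, -2.37 and -2.31 to -3.67, -3.09 and -2.56, with a wide spread in shXBP-1s (log2 fold change -0.80, SE 0.24, adjusted p = 0.0285). MIR17HG, the host of the miR-17 to miR-92a cluster, rose from -5.95, -5.80 and -6.00 to -5.33, -5.36 and -5.30 (0.59, SE 0.13, adjusted p = 0.00722). MIR100HG, the host of miR-100, let-7a and miR-125b, rose from -2.26, -2.23 and -2.29 to -1.76, -1.67 and -1.63 (0.57, SE 0.06, adjusted p = 1.43e-04). All 3 hosts had separate groups.

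MIR22HG, the host of miR-22, stood at -2.15, -1.15 and -1.22 in shCtrl and at -1.003, -0.84 and -1.01 in shXBP-1s. The difference of 0.56 (SE 0.24, adjusted p = 0.0976) did not pass. It was larger, at 1.20 with the slide as a block, against shCtrl replicate 1 alone. That was the only shCtrl array with the scan time of the shXBP-1s samples, and it was the lowest of shCtrl. The spread of the controls cannot be measured from 1 array. MIR31HG differed by 0.20 (SE 0.07, adjusted p = 0.0516).

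Antisense, divergent, intronic and overlapping transcripts gave 6 calls higher and 8 lower among 296 probes, 4.73% called against 4.9% of all tested probes (median -0.05). The labels describe labelling of double-stranded cDNA by a procedure for another array, and whether strand was kept was not tested. If it was not, signal from a coding gene and from a transcript opposite it cannot be told apart where both cover the probe. The largest fall with a symbol was that of LY6E-DT, named after its values were seen, a transcript divergent from the LY6E gene. It stood at -4.62, -4.38 and -4.62 in shCtrl and at -6.83, -6.95 and -7.10 in shXBP-1s, where 1 of 3 arrays was well above background (log2 fold change -2.42, SE 0.15, adjusted p = 1.12e-05). LY6E itself fell by 0.84 on the log2 scale (adjusted p = 1.12e-04).

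GAS6-AS1, opposite GAS6, the gene for a ligand of the TAM receptor kinases, fell from -4.12, -3.74 and -3.69 to -5.26, -5.18 and -5.04 (log2 fold change -1.31, SE 0.14, adjusted p = 1.61e-04). Its second probe was at -0.65, and GAS6 was at -0.69. KCNJ2-AS1 was not well above background on any shXBP-1s array. It stood at -6.63, -6.18 and -5.95 in shCtrl and at -7.43, -7.50 and -7.10 in shXBP-1s. The bound of the fall was 1.84-fold, and the fitted log2 fold change was -1.09 (adjusted p = 0.00857). The call was lost without shCtrl replicate 3 (-0.94), with the slide as a block (-0.71) and in the deposited values (-0.95). KCNJ2, the gene for an inward rectifier potassium channel, was called lower at -1.29.

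C1QTNF1-AS1 rose from -4.88, -5.06 and -4.73 to -3.50, -3.47 and -3.39 (1.43, SE 0.11, adjusted p = 2.82e-05, but -0.19 after normexp and 0.50 with quantile normalization added), and C1QTNF1, for a secreted C1q-related protein, was higher by 0.68 (adjusted p = 0.00816). PSG8-AS1 rose from -3.48, -3.88 and -3.71 to -2.19, -2.16 and -2.19 (1.51, SE 0.10, adjusted p = 1.76e-05), while the probes of PSG8, a pregnancy-specific glycoprotein, were at 0.17 and -0.49. Both transcripts had separate groups. ATXN8OS, the transcript opposite the ataxin 8 repeat, was not well above background on any shCtrl array. It stood at -6.98, -7.75 and -8.39 there and at -6.48, -6.51 and -6.54 in shXBP-1s. The bound of the rise was 1.56-fold, and the fitted log2 fold change was 1.20 (adjusted p = 0.0279). The call was lost with the slide as a block (0.47) and without any 1 array other than shCtrl replicate 1 (adjusted p between 0.0608 and 0.0815 by limma).

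A coding partner was tested for 258 of the antisense-class probes, and the signs of both were the same for 158. Of the 9 called probes with a tested partner, 8 had the sign of the partner and for 2 the partner was called as well. These were KCNJ2-AS1 and UNC5B-AS1, and the latter, named after its values were seen, fell from -1.22, -1.19 and -1.25 to -2.44, -2.44 and -2.33 (-1.19, SE 0.06, adjusted p = 4.11e-06) beside a log2 fold change of -1.29 for UNC5B, a netrin receptor. CNN3-DT (-1.11) was the called probe whose partner had the other sign at its brightest probe, CNN3 at 0.11 (adjusted p = 0.124). With the slide as a block CNN3-DT was at -0.91 and under 2-fold. PSG8-AS1 had the sign of its partner through the brighter PSG8 probe only (0.17, adjusted p = 0.238). The other PSG8 probe had the opposite sign (-0.49, adjusted p = 0.0158). SRP14-DT (-1.01) fell beside a smaller fall of SRP14, of the signal recognition particle (-0.21, adjusted p = 0.0155), and was just under 2-fold without shCtrl replicate 2, shXBP-1s replicate 2 or shXBP-1s replicate 3 (-0.99 to -0.97). SVIL-AS1 rose by 1.18 and SVIL by 0.36 (adjusted p = 0.00173). Like UNC5B-AS1, the transcripts CNN3-DT, SRP14-DT and SVIL-AS1 are named for their partners after the values were seen.

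The transcribed pseudogenes gave 13 calls higher and 2 lower among 490 tested probes, 3.06% called against 4.9% of all tested probes (median 0.02). Without the minimum fold 106 were higher and 78 lower (21.6% and 15.9%, against 18.4% and 23.3% of all tested probes). The keratin pseudogenes KRT42P and KRT16P2 were the rises that held under all 19 settings. KRT42P went from -2.16, -2.12 and -2.04 to -0.44, -0.49 and -0.56 (log2 fold change 1.61, SE 0.06, adjusted p = 1.67e-06), and its other probe rose by 0.67. KRT16P2 went from -1.86, -1.75 and -1.57 to -0.04, -0.16 and -0.40 (1.53, SE 0.11, adjusted p = 2.02e-05). In both genes the groups were far apart. The coding keratin KRT17, of the basal epithelium and next to KRT42P, was called higher at 1.53, and KRT16, the parent of KRT16P2, was at 0.72 (adjusted p = 1.29e-04). Whether these probes also bind RNA of the coding keratins was not tested.

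TPRXL, a homeobox pseudogene, rose from -4.31, -4.75 and -4.72 to -2.77, -2.71 and -2.78 (1.84, SE 0.12, adjusted p = 1.73e-05), and the neighbouring ligand gene WNT7A was at 0.89 (adjusted p = 9.02e-04). LOC441666 rose from -5.40, -5.61 and -5.70 to -3.86, -4.05 and -4.14 (1.55, SE 0.13, adjusted p = 4.52e-05, but -0.37 after normexp and 0.40 with quantile normalization added), and its other probes were at 0.55 and 0.35. The groups were separate for both pseudogenes. ARB2BP was the gene whose probes were all called. One rose from -4.34, -4.15 and -4.002 to -3.01, -2.86 and -2.76 (1.29, SE 0.11, adjusted p = 5.59e-05). The other was not well above background on any shCtrl array (-7.41, -8.77 and -9.22) and stood at -5.39, -5.36 and -5.69 in shXBP-1s. The bound of that rise was 3.30-fold, with a fitted log2 fold change of 2.99 (adjusted p = 9.93e-04, but -0.60 after normexp and 0.30 with quantile normalization added).

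The call of CYCSP52, a cytochrome c pseudogene, rested on 1 array. It stood at -4.81, -2.68 and -2.38 in shCtrl and at -1.81, -1.56 and -1.57 in shXBP-1s (1.64, SE 0.55, adjusted p = 0.0453). Without shCtrl replicate 1, which was far below the other shCtrl arrays, the value was 0.88, and without any 1 of the shXBP-1s arrays the adjusted p was between 0.0916 and 0.115 by limma. The probes of CYCS were at -0.03, -1.06 and 0.00, and the dimmest of them, at -1.06, was called lower (adjusted p = 9.93e-06). SAA3P, a serum amyloid A pseudogene, fell from -1.42, -0.66 and -0.36 to -2.23, -2.22 and -2.48 (-1.50, SE 0.24, adjusted p = 0.00151), and under 2-fold when the slide was a block (-0.89). The adjacent receptor gene MRGPRX3 was called in the other direction, at 2.14. OSTCP1, named after its values were seen, fell from 0.81, 0.89 and 0.87 to -0.22, -0.15 and -0.17 (-1.04, SE 0.05, adjusted p = 3.52e-06), beside -0.69 for OSTC, a subunit of the oligosaccharyltransferase of the endoplasmic reticulum, and it was just under 2-fold when the slide was a block, with quantile normalization and in the deposited values (all -0.99). ADCY10P1, also named after its values were seen, rose by 1.27, with ADCY10 at 0.18. A parent, taken at its brightest probe, was tested for 210 pseudogene probes, of which 137 had its sign. Of the 4 called ones, 3 had the sign of the parent and 0 had a parent called at that probe.

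Small and ribosomal RNAs gave 1 call in each direction among 41 probes, 4.88% called against 4.9% of all tested probes. SCARNA9, a guide RNA of the Cajal body chosen after its values were seen, fell from -0.63, -0.41 and -0.48 to -1.53, -1.56 and -1.48 (-1.02, SE 0.07, adjusted p = 1.48e-05), while the probe of its relative SCARNA9L was at -0.15. The call of SCARNA9 lay at the limit and was lost with the slide as a block (-0.89), with quantile normalization and in the deposited values (-0.98 each), and without shCtrl replicate 2 (-0.97) or shXBP-1s replicate 2 (narrowly). The probes of the 28S ribosomal RNA RNA28SN5 did not move together. The called probe stood at 4.44, 5.65 and 4.96 in shCtrl and at 5.98, 6.04 and 6.10 in shXBP-1s (1.03, SE 0.26, adjusted p = 0.0138), a second was at 0.81 (adjusted p = 0.0392) and the third at -0.63 (adjusted p = 0.0410). Without shCtrl replicate 1 the first was at 0.73. Among other structural RNAs, chosen after their values were seen, RN7SL1 of the signal recognition particle fell by 0.15 on the log2 scale (adjusted p = 0.0479). The log2 difference was 0.01 for the telomerase RNA TERC (interval -0.11 to 0.14), 0.00 for RMRP, -0.06 for RN7SK and 0.20 for RPPH1. The described synthesis of cDNA from oligo dT limits what these probes can say of RNAs without a poly(A) tail.

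Other noncoding probes at protein-coding loci (29 tested) gave 1 call higher and 1 lower, 6.9% against 4.9% of all tested probes. Those with an accession without a symbol (170 tested) gave 4 calls higher and 5 lower, 5.29%. The largest change among the latter was that of NR_024014, chosen after its values were seen, which fell from -4.18, -4.003 and -4.07 to -6.50, -6.20 and -6.20 (-2.21, SE 0.13, adjusted p = 9.76e-06). Its groups were well separated.

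Of the 147 genes with 2 or more tested noncoding probes, 12 had a called probe, 1 had all its probes called and 71 had probes of opposite sign. In 8 genes probes of opposite sign each passed an adjusted p below 0.05, namely CENPBD2P, EOLA1-DT, LINC00205, LOC389834, NORAD, PVT1, RNA28SN5 and ZNF252P. The value of a noncoding gene here is therefore that of a probe, which can belong to 1 transcript of several.

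The coding neighbours on the reference were examined after the values of the noncoding genes were seen. Of 50 called noncoding genes with an adjacent or overlapping coding gene that was tested, 13 (26%) had a called neighbour, in the same direction for 8 and in the opposite direction for 5. Among the other 976 tested noncoding genes, 105 (10.8%) had a called neighbour. The neighbours in the same direction were KCNJ2, KRT17, TNS3, LEKR1 (counted for both LINC00880 and LINC00886, and near background in shCtrl), C6orf163, KLF6 and UNC5B. Those in the opposite direction were DACH1 (beside ATXN8OS, with probes at -1.01 and -0.84), BACH1, COL18A1, IRF2BP2 and MRGPRX3. The counts are descriptive, and they include overlapping pairs for which the strand may not be kept.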

How the data were processed

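The members and lists were chosen with earlier results of these data known. Per the labels and file headers, total RNA of 6 samples was hybridised to 1-colour Agilent arrays (design 026652, annotation hg19), and the authors deposited scanner output (Agilent Feature Extraction 11.0.1.1) with an intensity per spot after background subtraction. A deposited table from the authors holds log2 values with equal quartiles, for which the submitters' processing notes name RMA. The labels describe a NimbleGen procedure for the labelling, and the array is Agilent.

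From the log2 of the background-subtracted intensity, the 75th percentile over the non-control spots of that array was subtracted. Spots with a non-uniformity or population outlier flag (230 to 377 per array) were left out, and spots of a probe were averaged. The tested set was the 27624 probes that were well above background throughout shCtrl, throughout shXBP-1s or in both, fitted with limma 3.58.1 (lmFit, eBayes with trend, R 4.3.3), 2-sided, with Benjamini-Hochberg adjustment over all of them. Every adjusted p and interval is from this fit unless a left-out array or a block is named beside it. Calls needed both an adjusted p below 0.05 and a 2-fold change. With 3 arrays a group, their number limits the precision, and no exact permutation p below 0.1 is possible for a single probe. The test was checked on simulated data.

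Symbols, biotypes and neighbours came from accessions matched to RefSeq of GRCh38.p14, and gene coordinates are not given because the array annotation names hg19. Where no array of a group was well above background, the fold is a bound, which is an estimate and not a strict limit. The partner of an antisense transcript or pseudogene is the gene in its name, by its brightest tested probe for the counts.

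The genes named are among called probes with a symbol and well above background on all 6 arrays, the 8 that rose most and the 8 that fell most, up to 6 called members of each list, a fixed set of 19 well-known noncoding genes, the 4 largest bounds in each direction, genes with a called probe and an opposite probe at an adjusted p below 0.05, and the partners of these. Other genes are said to be chosen after their values were seen. The lists were snoRNA and scaRNA hosts, miRNA hosts, nuclear, squamous carcinoma and MHC-region long noncoding RNAs, paraspeckle proteins, nonsense-mediated decay factors, and squamous and fibroblast or leukocyte markers. Alternatives were quantile normalization, normexp (offset 50, on the median spot signal) with and without it, limma without trend, other filters on dim probes, other thresholds, the methods' t-test, the deposited log2 values, the replicate number or slide as a block, and leaving out each array.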

Additional observations from a re-analysis of the deposited data

How the results depend on the processing

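The 62 calls (36 higher, 26 lower) moved most with the normexp settings, which also change the signal column and add an offset, and with the minimum fold. With normexp 11 remained (3 higher, 8 lower) and 23 of the 62 changed sign. The median over the tested probes as a whole moved to -0.41. With normexp followed by quantile normalization 7 remained (3 higher, 4 lower), with 0 sign changes. The offset of 50 is added to every signal and by construction shrinks differences of dim probes. Without a minimum fold 503 passed (231 higher, 272 lower), and without a filter on dim probes 41 were lower. Under the other alternatives the count lay within 1.5 times 62: 58 with quantile normalization, 52 in the deposited values, 57 with the methods' t-test, 51 with it after Benjamini-Hochberg adjustment, and 54 to 86 when each array was left out. Without shCtrl replicate 1 it was 86, the highest of these. With the slide as a block, which compares shXBP-1s with shCtrl replicate 1 alone, 63 were called, 44 of them among the 62. The replicate numbers did not pair the samples (correlations of same-numbered deviations of -0.02, 0.12 and -0.12), and with a replicate block 63 were called (37 higher, 26 lower), 62 of them shared. Of the 44 named probes, these turned sign: with normexp ARB2BP (-0.60), ATXN8OS (-0.85), C1QTNF1-AS1 (-0.19), FIRRE (-0.53), GAS5 (0.17), LINC00205 (-0.39), LOC441666 (-0.37), MANCR (-0.36), MIR31HG (-0.024), PVT1 (-0.14) and SNHG1 (0.037), with normexp and quantile normalization GAS5 (0.055), and MALAT1 without shCtrl replicate 3 or shXBP-1s replicate 3 (-0.0081 to 0.033 over the arrays left out). Over all named probes and alternatives, 732 values kept their direction and side of the threshold, 67 lost the call, 15 gained one and 14 turned sign. Levels near the lowest signals well above background limit the dim probes.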
